A study of Mus musculus with 6 samples.

Results

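Interferon-induced transmembrane proteins (IFITM) and tetherin are antiviral proteins that sit in cell membranes, and their genes Ifitm1, Ifitm2, Ifitm3 and Bst2 are described here in stromal cells of the mouse large intestine. The 4 genes were taken by name, and all 4 had a row among the 24346 genes of the tables. RNA was sequenced from 6 libraries, each from a different 12-week-old mouse given 1% dextran sulfate sodium (DSS), which damages the lining of the colon and brings on inflammation. The floxed group held 3 mice with floxed alleles of Il10ra, the gene of the receptor chain that binds interleukin-10 (libraries 8, 9 and 43). In the Pdgfra-cre group, 3 mice carried those floxed alleles together with a cre recombinase driven by Pdgfra, a fibroblast gene (libraries 13, 23 and 25). The floxed mice carried no cre, so an effect of cre itself and of the loss of Il10ra cannot be told apart. Live cells with Podoplanin and without CD45, CD31 or EpCAM had been sorted from the whole colon, which takes fibroblasts and leaves out leukocytes, endothelial and epithelial cells. The comparison addresses whether loss of Il10ra in these cells goes with a type I interferon response, the subject that the series title names.

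IFITM proteins are small membrane proteins that hinder the fusion of enveloped viruses with the membranes of the host cell. IFITM3 acts mainly in endosomes and lysosomes, while IFITM1 is found more at the cell surface. Tetherin, the product of Bst2, holds budding virus particles at the plasma membrane, and it is also a surface antigen of plasmacytoid dendritic cells and plasma cells. Interferons raise the transcription of these genes through transcription factors that bind short promoter motifs, among them the interferon-stimulated response element (ISRE) and the gamma-activated site (GAS).

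Ifitm1, Ifitm2 and Ifitm3 lie side by side on chromosome 7 of mm10, and Bst2 lies on chromosome 8. In GENCODE M21, Ifitm2 spans 140954837 to 140955987 on the minus strand, Ifitm1 spans 140967221 to 140969825 on the plus strand and Ifitm3 spans 141009586 to 141010770 on the minus strand. Bst2 spans 71534255 to 71537456 on the minus strand. The coding transcripts of Ifitm2 and Ifitm3 have 2 exons, those of Ifitm1 have 2 or 3, and that of Bst2 has 5.

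Promoter sequences are shown because the windows taken for the 4 genes differ in their matches to interferon elements. Each runs from 250 bases before to 50 bases after a RefSeq transcription start (build GRCm38.p6, the assembly behind mm10), 5′ to 3′ on the gene's strand, and capitals mark every match to the ISRE core GAAANNGAAA or to the GAS motif TTCNNNGAA, searched on both strands. The windows are chr7:140967826-140968125 (plus strand) for Ifitm1, chr7:140955912-140956211 (minus) for Ifitm2, chr7:141010695-141010994 (minus) for Ifitm3 and chr8:71537423-71537722 (minus) for Bst2.
Ifitm1: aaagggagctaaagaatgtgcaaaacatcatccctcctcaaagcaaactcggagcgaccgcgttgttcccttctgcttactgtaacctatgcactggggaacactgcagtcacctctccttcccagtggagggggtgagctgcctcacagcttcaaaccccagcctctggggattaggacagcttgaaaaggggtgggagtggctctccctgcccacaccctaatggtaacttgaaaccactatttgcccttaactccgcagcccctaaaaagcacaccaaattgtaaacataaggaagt
Ifitm2: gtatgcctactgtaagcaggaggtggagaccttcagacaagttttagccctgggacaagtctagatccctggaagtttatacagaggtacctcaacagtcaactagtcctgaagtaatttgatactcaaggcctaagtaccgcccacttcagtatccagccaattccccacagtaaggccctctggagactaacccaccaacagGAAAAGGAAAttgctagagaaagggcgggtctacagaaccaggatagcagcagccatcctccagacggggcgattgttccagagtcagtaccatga
Ifitm3: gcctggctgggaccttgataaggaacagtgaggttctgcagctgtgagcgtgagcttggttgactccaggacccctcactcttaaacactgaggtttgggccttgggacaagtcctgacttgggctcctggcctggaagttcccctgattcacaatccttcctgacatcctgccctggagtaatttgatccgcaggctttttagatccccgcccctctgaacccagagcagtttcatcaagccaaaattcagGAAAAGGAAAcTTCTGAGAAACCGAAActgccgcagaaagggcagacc
Bst2: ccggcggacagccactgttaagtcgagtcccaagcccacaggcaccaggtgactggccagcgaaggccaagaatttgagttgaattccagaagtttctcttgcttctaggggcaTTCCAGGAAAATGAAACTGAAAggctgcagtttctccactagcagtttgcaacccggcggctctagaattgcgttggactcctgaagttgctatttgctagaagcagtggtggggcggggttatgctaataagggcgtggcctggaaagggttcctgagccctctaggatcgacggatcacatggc

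Bst2 held 2 overlapping ISRE core matches, GAAAATGAAA and GAAACTGAAA, of which the upstream one began 130 bases before the start and overlapped a GAS match by some bases. Ifitm3 held GAAAAGGAAA and GAAACCGAAA with a GAS match, TTCTGAGAA, that overlapped the latter, all just after the RefSeq start. The GENCODE gene for Ifitm3 begins upstream of that start. Ifitm2 held 1 ISRE core match, GAAAAGGAAA, the same letters as in Ifitm3, which began 46 bases before the start. The Ifitm1 window held neither motif, and GENCODE places the 5′ end of Ifitm1 upstream of this window, a region not searched here. Of 32851 promoters of this length, 3.44% held the ISRE core and 8.3% held GAS. Among 41 promoters of 34 type I interferon-stimulated genes, 41.5% held the ISRE core and 12.2% held GAS. A match is a match of letters and does not show that a factor binds there.

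**Figure D1:**
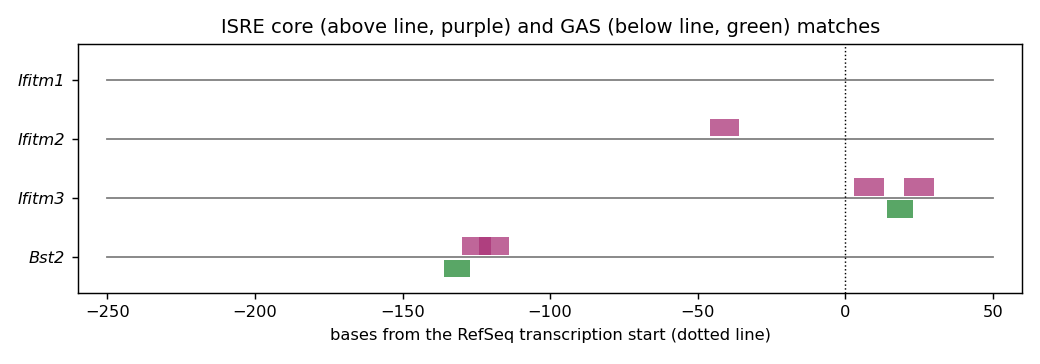
Positions of ISRE core matches (purple, above each line) and GAS matches (green, below each line) in the promoter windows of the 4 genes, in bases from the RefSeq transcription start. Bst2 and Ifitm3 hold 2 ISRE core matches each and 1 GAS match, Ifitm2 holds 1 ISRE core match, and the Ifitm1 line is empty.

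The targeted gene could not serve as a check of the genotypes. Il10ra was listed at 0 in 5 of 6 libraries and had an FPKM (fragments per kilobase of transcript, scaled to the mapped fragments of the library) of 0.418 in floxed library 43. The sorted marker Pdpn lay between 78.3 and 124 FPKM over the 6 libraries, while the CD45 gene Ptprc reached at most 1.04. Pdgfra was 178, 186 and 200 FPKM in floxed libraries 8, 9 and 43. In Pdgfra-cre libraries 13, 23 and 25 it was 155, 120 and 174 FPKM, lower than in any floxed library. Low values put 1 read per kilobase at about 0.115 to 0.135 FPKM, a rough estimate that leaves about 310 to 1240 reads behind a Bst2 value and a counting error of 2.8% to 5.7%. For the 3 Ifitm genes the counting error on this estimate was 0.51% to 1.4%. Pdgfra-cre library 23 stood apart: its 5 neutrophil markers in the table summed to 179 FPKM, against 1.03 to 17.9 in the others, and its smooth muscle and mural markers to 131, against 293 to 556. Fold changes of the 4 genes, list medians and some of the other named genes are therefore also given without it.

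The 4 genes had the same order of level in every library, Ifitm3 above Ifitm2 above Ifitm1 above Bst2, per length. The lowest Ifitm3 value, 2661 FPKM, lay above the highest Ifitm2 value, 2235 FPKM. The lowest Ifitm2 value, 1376 FPKM, lay above the highest Ifitm1 value, 1243 FPKM. Thus the ranges of neighbours in this order over the 6 libraries did not overlap. Ifitm3 ranked between 5 and 10 of all genes, Ifitm2 between 28 and 32, and Ifitm1 between 43 and 80. Bst2 ranked between 559 and 1872. Ifitm1, Ifitm2 and Ifitm3 together made up 1.03% to 1.69% of the summed FPKM of a library. These levels depend on the transcript length used for each gene, and the GENCODE transcripts of Ifitm1 range from 560 to 882 bases.

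The other family members were close to absent from these cells. Ifitm5, a gene known for its part in bone formation, lay between 0.408 and 1.46 FPKM. Ifitm6 lay between 0 and 2.98 FPKM in 5 libraries and at 7.63 in Pdgfra-cre library 23, where the neutrophil markers were highest, and the part of those cells in this value was not tested. Ifitm7 was listed at 0 in every library, and Ifitm10 was above 0 only in Pdgfra-cre libraries 13 (0.244 FPKM) and 25 (0.0333 FPKM).

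Bst2, the least abundant of the 4 genes, had the highest log2 fold change among them, although its difference in FPKM was the smallest. Its level was 55.0, 78.2 and 45.3 FPKM in floxed libraries 8, 9 and 43, and 88.5, 179 and 75.8 FPKM in Pdgfra-cre libraries 13, 23 and 25. Libraries 13 and 23 lay above every floxed library, and library 25 lay just below floxed library 9, so the groups overlapped. The means were 59.5 ± 16.9 and 115 ± 56.5 FPKM (SD, n = 3 each). The log2 fold change was 0.87 ± 0.31 (SE, 95% interval 0.17 to 1.56) on the log2(FPKM + 1) scale, with an unadjusted p of 0.0197 in limma's moderated test and an adjusted p of 0.331. It did not pass the threshold of 0.05. Without Pdgfra-cre library 23 the log2 fold change was 0.49 (adjusted p = 0.527 in limma). Of the 11429 genes tested, 1.94% had a log2 fold change at least as high as that of Bst2.

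The level of Ifitm3 was 3137, 3412 and 2661 FPKM in floxed libraries 8, 9 and 43, and 3921, 6450.3 and 2997 FPKM in Pdgfra-cre libraries 13, 23 and 25. The same pattern of overlap as in Bst2 was seen, with libraries 13 and 23 above every floxed library and library 25 among them. The means were 3070.0 ± 380 and 4456 ± 1788 FPKM (SD, n = 3 each), and the log2 fold change was 0.47 ± 0.25 (SE, 95% interval -0.086 to 1.03; adjusted p = 0.55 in limma). Library 23 carried most of the difference. Without it the log2 fold change was 0.17 and the ratio of group means went from 1.45 to 1.13. Without library 25, the lowest of its group, the log2 fold change was 0.72 (adjusted p = 0.226 in limma).

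The level of Ifitm2 was 1669, 1801 and 1376 FPKM in floxed libraries 8, 9 and 43, and 1820.5, 2235 and 1530.3 FPKM in Pdgfra-cre libraries 13, 23 and 25. Libraries 13 and 23 lay above every floxed library and floxed library 43 lay below every Pdgfra-cre one, while library 25 lay among the floxed libraries, so the groups overlapped. The log2 fold change was 0.20 ± 0.16 (SE, 95% interval -0.17 to 0.56; adjusted p = 0.737 in limma). It was 0.056 without Pdgfra-cre library 23, 0.086 without floxed library 43, and -0.068 under quantile normalization, and it was 0.33 without Pdgfra-cre library 25.

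Ifitm1 lay below the floxed range in 2 of the 3 Pdgfra-cre mice. Its level was 1167, 1049 and 1096 FPKM in floxed libraries 8, 9 and 43, and 831, 1243 and 761 FPKM in Pdgfra-cre libraries 13, 23 and 25. Library 23 was the exception and had the highest value of all 6. The floxed libraries lay close together, with a coefficient of variation of 5.41%, against 27.6% in Pdgfra-cre. The log2 fold change was -0.26 ± 0.17 (SE, 95% interval -0.65 to 0.14; adjusted p = 0.665 in limma). Without library 23 it was -0.47 (adjusted p = 0.213 in limma), and without library 25 it was -0.12.

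**Figure D2:**
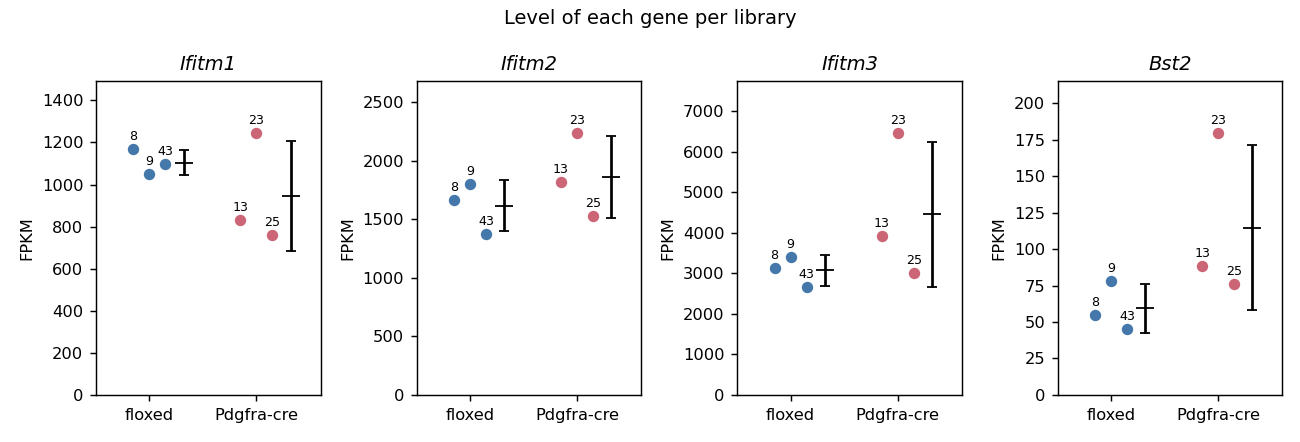
FPKM of Ifitm1, Ifitm2, Ifitm3 and Bst2 in each library, 1 point per mouse labelled with its number, with the mean and SD of each group (n = 3) beside the points; each axis starts at 0. Library 23 is the highest of all 6 for each gene, and in Ifitm1 libraries 13 and 25 lie below the floxed group.

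None of the 4 genes passed an adjusted p of 0.05 in limma, and 0 of all 11429 genes tested did (0%). At an unadjusted p under 0.05, 1 of the 4 was called, Bst2, against 11% of all genes tested, of which 5.47% were higher in Pdgfra-cre and 5.49% lower. The log2 fold change was above 0 in 3 of the 4 and in 50.3% of all genes tested. The groups overlapped in all 4 genes, while 16.4% of all genes tested had groups that did not overlap (8.07% higher in Pdgfra-cre and 8.29% lower). In sorted bulk RNA a lower or higher level can come from the number of cells of a type or from RNA per cell, which cannot be told apart.

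The shares of Ifitm1 and Ifitm3 in the IFITM transcript pool did not overlap between the groups. How often the shares of other gene sets fail to overlap was not examined. Of all genes tested, 16.4% had levels that did not overlap. Ifitm1 made up 19.5%, 16.7% and 21.4% of the summed FPKM of Ifitm1, Ifitm2 and Ifitm3 in floxed libraries 8, 9 and 43. In Pdgfra-cre libraries 13, 23 and 25 it made up 12.6%, 12.5% and 14.4%. All 3 Pdgfra-cre libraries, 23 included, thus lay below all 3 floxed libraries. The share of Ifitm3 was 52.5%, 54.5% and 51.8% in the floxed libraries and 59.7%, 65.0% and 56.7% in the Pdgfra-cre libraries, again with no overlap. The share of Ifitm2 was 27.8% ± 0.982 and 26.4% ± 3.41 (SD, n = 3 each) and overlapped.

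The shares of Ifitm1 and Ifitm3 each had p = 0.1 by exact two-sided permutation, the smallest p that 3 libraries against 3 allow, and 0.15 after adjustment over the 3 shares. For Ifitm2 the exact p was 0.7. Since the shares add to the whole, they are not independent of each other. The difference in the share of Ifitm1 was -6.03 percentage points and ran from -7.26 to -4.96 when each library was left out in turn. That of Ifitm3 was 7.48 points and ran from 5.22 to 9.37. The ratio of Ifitm3 to Ifitm1 in a library, which scaling of the whole library does not move, was 2.69, 3.25 and 2.43 in floxed libraries 8, 9 and 43. It was 4.72, 5.19 and 3.94 in Pdgfra-cre libraries 13, 23 and 25.

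**Figure D3:**
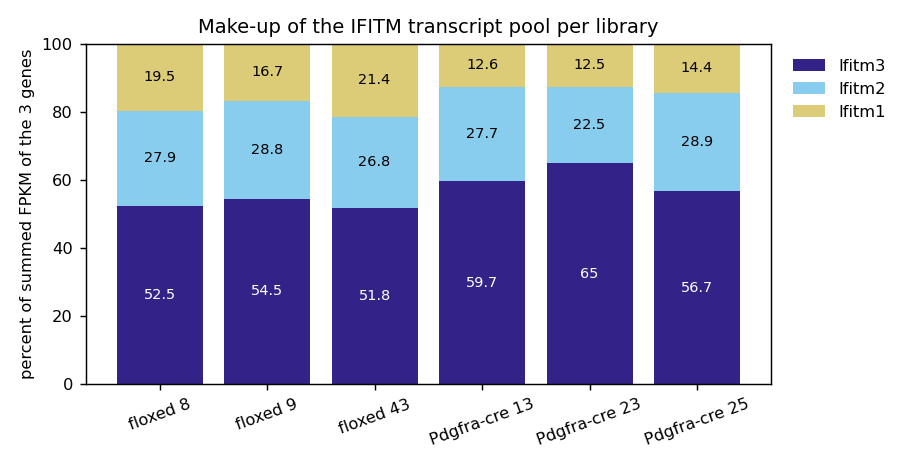
Percent of the summed FPKM of Ifitm1, Ifitm2 and Ifitm3 that each gene made up, 1 bar per library. The Ifitm1 segment is 16.7% to 21.4% in the floxed libraries and 12.5% to 14.4% in the Pdgfra-cre libraries, and the Ifitm3 segment is larger in each Pdgfra-cre library than in any floxed one.

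The shares rest on how reads were divided between close paralogs. In their GENCODE coding sequences Ifitm2 and Ifitm3 were identical at 80.9% of aligned bases, and Ifitm1 was identical to each of them at 82.1%. The longest stretch of identical bases was 69 between Ifitm2 and Ifitm3, 64 between Ifitm1 and Ifitm3, and 40 between Ifitm1 and Ifitm2. Only 3.3% of the 50-base windows of the Ifitm2 transcript and 2.18% of those of the Ifitm1 transcript occurred unchanged in the Ifitm3 transcript. The sources used here do not give the read length. GENCODE also places a longer gene, Gm45717, on the same strand over Ifitm2 and Ifitm5. It has no row of that name in the tables.

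The pathway that induces these genes was compared through lists. Of 47 type I interferon-stimulated genes without the 4 described here, 41 had enough signal to be tested, and 39 had a log2 fold change above 0. Their median was 0.77, against 0.0012 for all genes tested, and 0.41 without Pdgfra-cre library 23. The groups did not overlap in 18 of them, each higher in Pdgfra-cre, as in 8.07% of all genes tested, and 0 passed an adjusted p of 0.05 in limma. The log2 fold change of Bst2 lay above the median of this list, and those of the 3 Ifitm genes lay below it. Lgals3bp, a secreted galectin-binding protein and the most abundant on the list, was 230 ± 35.5 FPKM in floxed and 293 ± 70.8 in Pdgfra-cre libraries (SD, n = 3 each), and its log2 fold change went from 0.33 to 0.15 without library 23. Ifit3, which encodes an antiviral protein induced by interferon, was 11.1 ± 1.46 and 34.6 ± 19.4 FPKM, with a log2 fold change of 1.43 that was 1.02 without library 23. It had the lowest unadjusted p of the list, followed by the nuclear body gene Sp100 (15.6 ± 0.828 and 30.4 ± 9.93 FPKM). Ube2l6, the conjugating enzyme of ISG15, was 88.7 ± 3.62 and 149 ± 82.2 FPKM, with a log2 fold change of 0.61 that was 0.20 without library 23.

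Among interferon receptors, JAK-STAT members and feedback inhibitors, 11 of 15 tested genes were above 0, with a median log2 fold change of 0.23, and of 0.33 without Pdgfra-cre library 23. At an unadjusted p under 0.05, 7 were higher and 0 lower, against 5.47% higher and 5.49% lower of all genes tested, and 0 passed the adjusted threshold in limma. Jak2, a receptor-bound kinase, was 6.66 ± 1.13 and 14.1 ± 4.91 FPKM (SD, n = 3 each). Irf1, a transcription factor that binds interferon elements, was 305 ± 46.0 and 507 ± 194 FPKM, and its log2 fold change went from 0.68 to 0.39 without library 23. Ifngr1, which encodes a chain of the interferon gamma receptor, was 246 ± 29.3 and 211 ± 10.8 FPKM. The interferon genes Ifnb1 and Ifng were listed at 0 in every library.

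Other proteins that act on viruses at membranes did not share 1 direction. Of 13 tested genes 8 were above 0 and 5 below, with a median log2 fold change of 0.028 and, without library 23, -0.020. The groups did not overlap in 3 genes that were higher in Pdgfra-cre and in 2 that were lower, against 8.07% higher and 8.29% lower of all genes tested, and 0 passed the adjusted threshold in limma. Gbp2, a guanylate-binding protein that hinders the maturation of viral envelope proteins, was 54.1 ± 5.67 FPKM in floxed and 202 ± 162 in Pdgfra-cre libraries (SD, n = 3 each). Library 23 carried much of this mean, at 384 FPKM against 149 and 73.5 in libraries 13 and 25, and the log2 fold change of Gbp2 went from 1.57 to 0.95 without it. Ch25h, which makes 25-hydroxycholesterol, an oxysterol that blocks membrane fusion, was 29.9, 20.8 and 22.1 FPKM in floxed libraries 8, 9 and 43. It was 10.3, 13.7 and 14.3 FPKM in Pdgfra-cre libraries 13, 23 and 25, lower than in any floxed library. Its log2 fold change was -0.87 ± 0.19 (SE; adjusted p = 0.169 in limma) and -0.93 without library 23. Ly6e, a surface protein that interferes with virus entry, was 329 ± 50 and 522 ± 249 FPKM and overlapped between groups, and its log2 fold change went from 0.57 to 0.21 without library 23. Serinc3, which hinders retrovirus particles from infecting, was 182 ± 12.0 and 174 ± 7.75 FPKM.

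**Figure D4:**
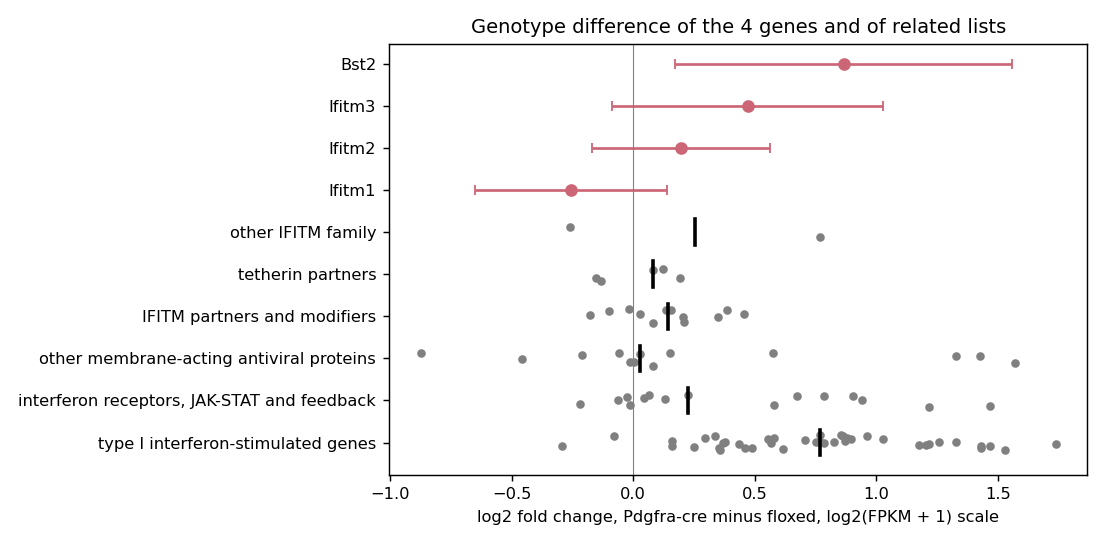
Log2 fold change between Pdgfra-cre and floxed libraries on the log2(FPKM + 1) scale for the 4 genes (red points with 95% intervals) and for the tested members of 6 related lists (grey points, with the median as a black bar; vertical scatter within a list has no meaning). The interval of Bst2 lies above 0, from 0.17 to 1.56, while those of Ifitm1, Ifitm2 and Ifitm3 include 0, and the list of interferon-stimulated genes has its median at 0.77.

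Genes whose products modify or bind IFITM proteins had a median closer to 0 than the interferon-stimulated genes, a difference that was not tested. Of 12 tested, 9 were above 0 with a median log2 fold change of 0.14, which was 0.11 without Pdgfra-cre library 23. Of these genes 0 passed the adjusted threshold in limma. Nedd4, a ubiquitin ligase that marks IFITM3 for breakdown, was 204 ± 9.15 FPKM in floxed and 181 ± 15.4 in Pdgfra-cre libraries (SD, n = 3 each). Vcp, an ATPase that extracts ubiquitinated proteins from membranes, was 188 ± 9.19 and 210 ± 18.1 FPKM. The kinase gene Fyn, whose product phosphorylates IFITM3, had the lowest unadjusted p of the list, at 54.4 ± 3.10 and 72.1 ± 12.6 FPKM (adjusted p = 0.368 in limma). Kdm1a, a lysine demethylase gene, was 14.9 ± 4.51 and 20.2 ± 1.86 FPKM. Of 5 tested genes tied to the trafficking of tetherin, 3 were above 0 with a median of 0.079, which was 0.028 without Pdgfra-cre library 23. These included Hgs, which sorts ubiquitinated cargo to lysosomes (20.5 ± 0.358 and 23.5 ± 0.765 FPKM, SD, n = 3 each), Ap1m1, an adaptor subunit (45.9 ± 7.33 and 49.7 ± 3.62), and the ubiquitin ligase gene March8 (21.6 ± 0.780 and 22.9 ± 1.5).

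The profile of each gene over the 6 libraries was compared with those of 7879 other genes that had a mean of at least 5 FPKM. Likeness was the root mean square difference between log2(FPKM + 1) values, each centred on the gene's own mean. Nearest to Bst2 were Ly6c1 (0.063), Ifi203 (0.109) and Ly6a (0.12), against a median of 0.639 for all genes compared. Ly6a and Ly6c1 encode surface proteins of the Ly6 family and Ifi203 a member of the interferon-inducible IFI200 family. Ly6c1 was 684, 942 and 558 FPKM in floxed libraries 8, 9 and 43 and 1130, 1980 and 905 FPKM in Pdgfra-cre libraries 13, 23 and 25. Ifitm3 stood at position 38 of 7879 in likeness to Bst2, at 0.252. Ifitm2 stood at position 374 and Ifitm1 at position 3877.

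Among the nearest to Ifitm3 were Coq7 (0.059), a gene of coenzyme Q synthesis, and the metal transporter gene Slc11a2 (0.09). Nearest to Ifitm2 were Mrpl54 (0.034), Pdpn (0.035) and Chpf2 (0.038), which encode a mitochondrial ribosomal protein, the sorted marker and a chondroitin-polymerizing factor. Nearest to Ifitm1 were Ttc39b (0.025), Rcbtb1 (0.05) and Snrnp25 (0.061). Ifitm3 stood at position 5712 of 7879 in likeness to Ifitm1, at 0.402, further than the median gene (0.329), though both lie in the same cluster. Taken from Ifitm3, the same 0.402 put Ifitm1 at position 2651, nearer than the median gene (0.451). With 6 libraries, nearness in this measure is a description of these samples.

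**Figure D5:**
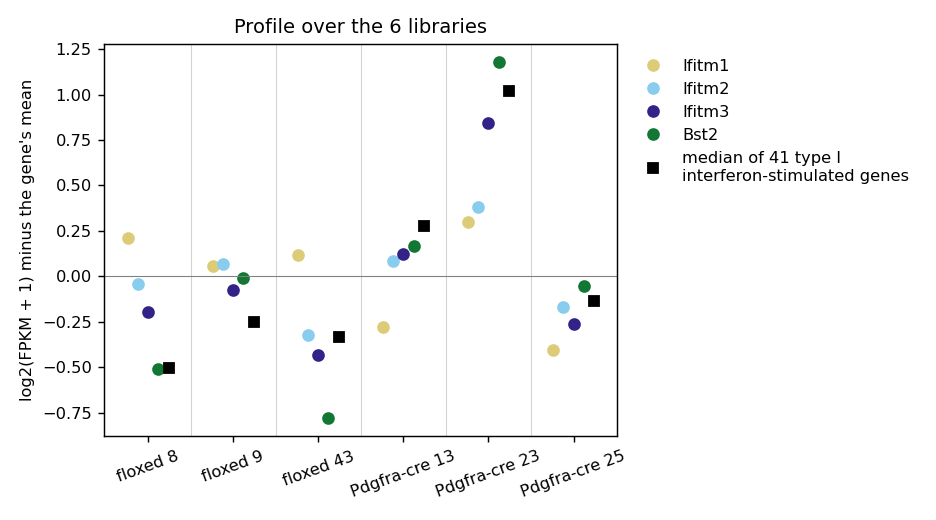
Log2(FPKM + 1) of Ifitm1, Ifitm2, Ifitm3 and Bst2 minus each gene's mean over the 6 libraries, with the median of 41 type I interferon-stimulated genes as black squares. Bst2, Ifitm3 and the list median are highest in library 23 (list median 1.02) and next highest in library 13. Ifitm1 is also highest in library 23 but lies below its mean in library 13. In library 25 each of the genes lies below its mean, and the list median is -0.133.

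Markers of other cells were set beside these levels. The summed FPKM of 5 leukocyte markers was 1.67 to 4.32 in floxed libraries, 2.28 and 2.90 in Pdgfra-cre libraries 13 and 25, and 12.4 in library 23. Of the neutrophil markers S100a8 was 94.7 FPKM in library 23 and 9.42 and 6.9 in libraries 13 and 25. In floxed libraries it was 0 to 6.84 FPKM. S100a8 and S100a9 were each higher in every Pdgfra-cre library than in any floxed one, while Cxcr2, Csf3r and Retnlg overlapped. The part of these cells in the high values of library 23 was not tested. Plasmacytoid dendritic cells, which carry tetherin, left little trace, with Siglech at 0 in 5 libraries and 0.048 FPKM in library 13. Their list of 6 markers summed to 30.3 to 38.9 FPKM in floxed and 29.3 to 29.9 in Pdgfra-cre libraries, mostly from Tcf4 (21.7 to 33.7 FPKM). The 7 lymphocyte and plasma cell markers summed to 11.5 FPKM in library 23 and to 1.8 to 4.89 elsewhere. Most of this came from the plasma cell gene Jchain, at 10.5 FPKM in library 23 and 1.17 to 3.95 elsewhere. The part of plasma cells in the Bst2 value of library 23 was not tested. Smooth muscle and mural markers summed to 535 to 556 FPKM in floxed and 131 to 324 in Pdgfra-cre libraries, without overlap. Of this list, Acta2, Myh11, Cnn1 and Actg2 were each lower in every Pdgfra-cre library than in any floxed one. Rgs5 (3.41 ± 0.235 in floxed and 3.72 ± 1.05 FPKM in Pdgfra-cre libraries) and Cspg4 (2.31 ± 0.374 and 1.9 ± 0.427; SD, n = 3 each) overlapped. Mesothelial markers summed to 2.49 to 10.1 and 11.6 to 62.0 FPKM, also without overlap. Msln, Upk3b and Lrrn4 were each higher in every Pdgfra-cre library, while Krt19 and Wt1 overlapped. Wt1 had its highest value, 3.85 FPKM, in floxed library 9. Epithelial markers summed to 0.173 to 10.6 FPKM in floxed and 5.61 to 25.4 in Pdgfra-cre libraries, highest in library 23. Of this list only Krt18 did not overlap, higher in Pdgfra-cre, and Epcam reached at most 1.11 FPKM. Whether the differences in these markers have a part in the differences in Ifitm1, Ifitm3 or Bst2 was not tested. Fibroblast markers summed to 15800 to 19100 and 19000 to 19400 FPKM. Most of this was Dcn (8840 ± 274 and 10200 ± 882 FPKM; SD, n = 3 each), higher in every Pdgfra-cre library. Pdgfra was lower in every Pdgfra-cre library than in any floxed one. Its log2 fold change was -0.34 (adjusted p = 0.411 in limma) and -0.20 without library 23. Pdpn, Col1a1, Col1a2, Lum and Col3a1 overlapped. Of all genes tested, 8.07% were higher without overlap and 8.29% lower.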

How the data were processed

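Sorted stromal cells of 6 mice, 3 per genotype, were measured by RNA-seq. The authors deposited FPKM per gene, with a separate table for each library. Per the labels' protocols, cDNA came from a full-length kit and was tagmented, a route that does not keep strand. Per the submitters' processing notes, TopHat2 2.1.1, Bowtie2 2.2.8, SAMtools 0.1.18, Cuffdiff 2.2.1 and mm10 were used. The sources used here do not give the annotation, read length, read numbers or handling of reads that match several genes.

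Genes that reached an FPKM of 1 in 3 or more libraries (11429 of 24346) were tested on log2(FPKM + 1) with limma 3.58.1 in R 4.3.3, with a variance trend and Benjamini-Hochberg adjustment at 0.05. All 4 genes described passed this filter. Fold changes on this scale understate changes of low genes. Shares of the IFITM pool were compared with exact permutation tests (scipy 1.17.1). Promoters are from RefSeq (GRCm38.p6) and gene locations from GENCODE M21. All 4 genes matched both. The procedure was tested on simulated data, where 54.6% of log2 fold changes of 1 and 94.3% of those of 2 passed the threshold. On average 4.6 and 8.6 unchanged genes passed as well. Only genes above a set mean level were changed, and noise was drawn for each gene on its own. No simulated library stood apart as library 23 did, so these rates may not hold for the real libraries. Each of the 4 genes had a log2 fold change smaller than 1, so a gene not called may still differ. Named genes were the 4 members, other family members, Il10ra, Pdgfra and Pdpn, 2 genes per list by mean and 2 by lowest p, 3 nearest profiles per member, and the 2 measured genes on each side of either locus. Some genes chosen in this way are not reported here. The members and lists were chosen with earlier results of these data known. Alternatives covered pseudocount, filter, scaling, the variance model and leaving out each library, and leaving out library 23 from list medians was added after seeing the data.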

Additional observations from a re-analysis of the deposited data

How the results depend on the processing

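Over 16 alternatives, Bst2 and Ifitm3 kept a log2 fold change above 0 (0.49 to 1.11 and 0.13 to 0.72) and Ifitm1 one below 0 (-0.47 to -0.12), and none of the 4 genes passed an adjusted p of 0.05 in limma (lowest 0.19, for Bst2 without Pdgfra-cre library 25). Quantile normalization gave 0.13 for Ifitm3 and turned Ifitm2 to -0.068, where the other 15 gave 0.056 to 0.33; the cause was not tested. The count of all genes past the threshold ran from 0 to 31 when each library in turn was omitted: 31 without library 25 of the Pdgfra-cre group, 3 without library 13 and 2 without floxed library 43. With all libraries it was 0 under each other setting. The difference in the share of Ifitm2 was -1.46 percentage points and ran from -2.73 to 0.48, with its sign turned without Pdgfra-cre library 23. Without that library the list median of other membrane-acting antiviral proteins turned from 0.028 to -0.020, and that of genes tied to tetherin fell from 0.079 to 0.028. Rescaling to TPM moved the median of all genes to -0.091. No paired analysis was possible because the groups share no replicate number. Levels of Bst2, with a rough counting error of up to 5.7%, are the least precise of the 4.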

Other observations

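The genes next to the IFITM cluster and to Bst2 had levels of their own. On chromosome 7, the nearest measured genes on either side of the cluster, BC024386, Nlrp6, B4galnt4 and Pkp3, lay between 0 and 0.432 FPKM in every library, beside Ifitm genes at 761 to 6450.3 FPKM. On chromosome 8, Mvb12a, which encodes a subunit of the endosomal sorting machinery, was 37.7 ± 8.29 FPKM in floxed and 43.6 ± 4.36 in Pdgfra-cre libraries (SD, n = 3 each). Gtpbp3, a mitochondrial RNA modification gene, was 1.62 ± 0.778 and 1.70 ± 0.577 FPKM, and the endothelial gene Plvap was 3.54 ± 0.332 and 3.35 ± 1.46 FPKM. Tmem221 was 0.235, 1.15 and 0.474 FPKM in floxed libraries 8, 9 and 43 and 1.97, 2.86 and 1.13 FPKM in Pdgfra-cre libraries 13, 23 and 25. Its log2 fold change was 0.88 ± 0.32 (SE; adjusted p = 0.344 in limma), and among floxed mice only library 9 reached the 1 FPKM of the filter, against all 3 in the Pdgfra-cre group.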
